A study of Mus musculus with 6 samples.

Results

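The insulin-like growth factor (IGF) axis was followed through 10 genes of the count table, chosen by symbol out of 23420: the ligands Igf1 and Igf2, the receptors Igf1r and Igf2r, and the binding proteins Igfbp2 to Igfbp7. All 10 symbols were found in the table, and 6 of them passed the filter on low counts. RNA was sequenced from bone marrow-derived mesenchymal stromal cells (MSCs) of female C57BL/6 mice aged 6 to 8 weeks, grown in AMEM with serum and transduced at passage 5 with a retrovirus that also carries eGFP. The 3 libraries titled MSC, called Ctl MSC here, were taken as the paper's control cells, given the empty AP2 backbone. Their titles do not name the vector. The 3 titled Tpr, called MSC-TPr here, were taken as cells given the same backbone with β1i (Psmb9), β2i (Psmb10) and β5t (Psmb11). These are the subunits of the thymoproteasome, a proteasome form of the thymic cortex. As the authors describe the cells, both groups carry the virus and the eGFP marker. The sources do not say whether the libraries of a group came from separate mice or cultures. The p-values thus set the difference between groups against the spread between these libraries, which may be technical.

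IGF1 and IGF2 are small secreted proteins related to insulin. They signal through IGF1R, a receptor tyrosine kinase that promotes growth and survival, while IGF2R, the cation-independent mannose 6-phosphate receptor, carries IGF2 and lysosomal enzymes to lysosomes. The secreted binding proteins hold the ligands in serum and matrix, extending their life or keeping them from the receptor, and bone and marrow stromal cells are known producers of several of them.

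Between 16158756 and 22158887 reads per library fell on genes, and the floor of detection set here, 3 reads, would equal 0.139 to 0.181 CPM (the reads of a gene scaled to 1 common library size with edgeR's TMM factors). That limit covers counting error only. The libraries numbered 1 lay apart from their own groups. On the first principal component of log2 CPM over the genes tested, each lay with the other label. Ctl MSC 1 was at −40.95, near MSC-TPr 2 and 3 (−50.27 and −49.36). MSC-TPr 1 was at 40.5, near Ctl MSC 2 and 3 (50.85 and 49.23). The second component followed the labels, at −48.86 to −19.59 in Ctl MSC and 15.58 to 49.1 in MSC-TPr. A list of 20 cell division genes had a mean log2 CPM of 6.58 in Ctl MSC 1 and 6.47 and 6.56 in MSC-TPr 2 and 3, against 3.24 and 3.22 in Ctl MSC 2 and 3 and 3.28 in MSC-TPr 1. The labels were separated by none of the transduced genes: Psmb9 measured 0.801 to 3.38 CPM in Ctl MSC and 0.554 to 1.24 CPM in MSC-TPr, Psmb10 8.38 to 27.8 CPM and 8.97 to 17.3 CPM, both were highest in Ctl MSC 1, and Psmb11 stayed at or under 0.355 CPM in every library. Directions given here are thus directions between library labels, and fits are given over all 6 libraries and without the pair numbered 1. For the transduced cells the paper reports an immunoblot of the subunits, a measure of protein. Of 10 MSC markers, 8 measured at least 30.7 CPM in every library, Nt5e measured 2.66 to 20.2 CPM, and Thy1 (CD90), a defining marker, had 1 read in Ctl MSC 1 and 0 in the others. By flow cytometry, the paper reports CD90 protein on its MSCs. Of 10 haematopoietic markers 8 were in the table, with Cd3e and Kit among those at 0 reads throughout and Ptprc (CD45) at 0.093 CPM at most, and they summed to 10.98 to 14.0 CPM in Ctl MSC libraries and 12.8 to 17.4 CPM in MSC-TPr libraries. Most of these sums came from Cd68, at 0.789 to 14.2 CPM and highest in MSC-TPr 1, and Cd14, at 3.27 to 13.2 CPM and highest in MSC-TPr 2. The 6 endothelial markers summed to 1.27 to 6.20 CPM and 2.41 to 24.7 CPM, with the highest sum in MSC-TPr 1, where Vwf alone measured 21.4 CPM, while Pecam1 reached at most 0.221 CPM. In such bulk libraries, fewer cells of a type and less RNA per cell cannot be told apart.

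A gene was called where the quasi-likelihood test of edgeR gave a p under 0.05 after Benjamini-Hochberg adjustment across every gene tested and its log2 fold change was 0.5 or more in size. Over all 6 libraries 0.426% of 11974 genes tested were called (0.0251% higher and 0.401% lower in MSC-TPr), and 0 of the 6 members tested were. An unadjusted p under 0.05 was reached by 1 member, Igfbp5, against 15% of all genes tested. DESeq2 called 1 member, Igfbp5, as higher, where it called 5.28% of the 12934 genes that it gave an adjusted p (1.89% higher and 3.39% lower). With the cell division level as a covariate in edgeR, the same gene was called higher, beside 12.2% of all genes tested (4.79% higher and 7.38% lower). A log2 fold change of 1 or more in size was reached by 1 of the 6, Igfbp5, and by 8.49% of all genes tested. The median log2 fold change of the 6 members was −0.18, and that of all genes tested was 0.01. The groups did not overlap for 2 of the 6, Igfbp5 (higher in every MSC-TPr library) and Igfbp4 (lower in every MSC-TPr library), where 22.6% of all genes tested did not overlap. Without the libraries numbered 1, 4 of the 6 members were called, Igfbp5 and Igfbp7 as higher and Igf2r and Igfbp4 as lower, beside 40% of all genes tested (20.6% higher and 19.4% lower). In those 4 libraries label and cell division level cannot be told apart: both Ctl MSC libraries had the low level and both MSC-TPr libraries the high one, and 20 of the 20 cell division genes were called higher, with a median log2 fold change of 3.38.

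**Figure D1:**
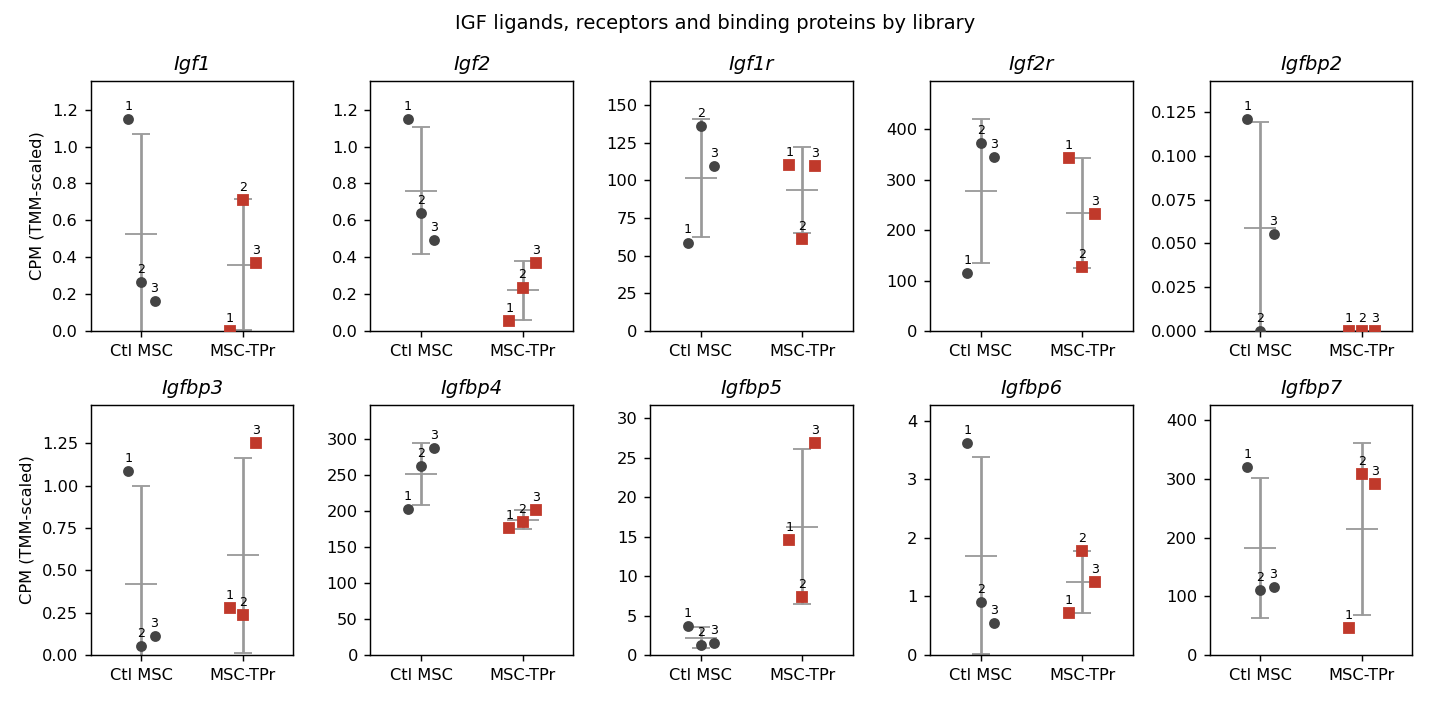
CPM (TMM-scaled, linear axes from 0) of each of the 10 genes in the 3 Ctl MSC libraries (circles) and the 3 MSC-TPr libraries (squares), each point numbered by its replicate, with the group mean and SD in grey (lower bars end at 0). Igfbp5 is higher in all 3 MSC-TPr libraries, Igfbp4 is lower in all 3, and the groups overlap for the other 4 tested members.

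The upstream sequences of 3 members are shown because these genes gave the main patterns below: Igfbp5 followed the labels, Igfbp7 was high in the libraries with a high cell division level, and Igf2r was low in them. They come from RefSeq (GRCm38.p6, the assembly of mm10), 5′ to 3′ on the strand of the gene, and end just before the start site. The Igfbp5 window stops 19 bases short of the RefSeq start, at the start that GENCODE places further upstream. Igfbp5 lies on the minus strand at chr1:72874885-72875115 (231 bases), Igfbp7 on the minus strand at chr5:77408046-77408295 (250 bases) and Igf2r on the minus strand at chr17:12769707-12769956 (250 bases). Capitals mark TATTTAA, a variant of the TATA box, in Igfbp5, and GC boxes (GGGCGG or its reverse CCGCCC) in Igfbp7 and Igf2r.
Igfbp5: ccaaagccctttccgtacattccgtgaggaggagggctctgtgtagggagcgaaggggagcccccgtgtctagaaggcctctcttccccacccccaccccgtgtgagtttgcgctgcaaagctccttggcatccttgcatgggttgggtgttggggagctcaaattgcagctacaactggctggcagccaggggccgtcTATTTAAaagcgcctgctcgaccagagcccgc
Igfbp7: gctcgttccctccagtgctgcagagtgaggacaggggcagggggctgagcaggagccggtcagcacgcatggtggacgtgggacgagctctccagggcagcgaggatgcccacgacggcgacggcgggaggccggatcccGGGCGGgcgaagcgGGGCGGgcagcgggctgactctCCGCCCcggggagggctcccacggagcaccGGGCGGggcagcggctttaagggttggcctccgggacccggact
Igf2r: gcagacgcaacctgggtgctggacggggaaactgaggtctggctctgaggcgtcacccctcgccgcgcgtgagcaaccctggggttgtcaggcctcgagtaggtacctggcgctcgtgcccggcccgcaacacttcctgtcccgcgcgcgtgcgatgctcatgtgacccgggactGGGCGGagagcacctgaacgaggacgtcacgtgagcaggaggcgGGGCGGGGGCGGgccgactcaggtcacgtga

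Both strands of the 250 bases before each start were searched. The GC box occurred 4 times before Igfbp7 and 3 times before Igf2r, of which 2 abut, and in 32.7% of all 32851 RefSeq promoter windows of this length. TATTTAA, which was searched after the Igfbp5 letters had been seen, occurred 1 time before Igfbp5, with its first base 51 bases before the RefSeq start, before none of the other members, and in 4.18% of all windows. GC boxes were also found before Igf1r, before 2 of 4 start sites of Igf2 and before 1 of 2 of Igfbp2. TATAAA was found before Igfbp4 and Igfbp6 and in 12.4% of all windows, and CCAAT before Igf1, Igf2 (at 1 of 4 start sites) and Igfbp6 and in 33.8%. TTTGAA, the cell cycle homology region of many cell division genes, was found before Igf1 and at 1 of 2 start sites of Igfbp2, and in 16% of all windows. These matches describe letters only.

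Both ligands were low, at 19 reads or fewer in every library. Igf1 lies on chromosome 10 of mm10 from 87858265 to 87937042. It had 19, 5 and 3 reads in Ctl MSC 1, 2 and 3 (1.15, 0.267 and 0.166 CPM) and 0, 12 and 8 reads in MSC-TPr 1, 2 and 3 (0, 0.71 and 0.371 CPM). The groups overlapped, and the 0 reads of MSC-TPr 1 allow up to 0.166 CPM. Ctl MSC 1 and MSC-TPr 2 and 3, with a high cell division level, were the highest libraries for Igf1, at low counts. Igf2, on chromosome 7 from 142650766 to 142666816, had 19, 12 and 9 reads across Ctl MSC (1.15, 0.641 and 0.496 CPM), against 1, 4 and 8 across MSC-TPr (0.055, 0.237 and 0.371 CPM). Every MSC-TPr library lay below every Ctl MSC library for Igf2. Its count is uncertain, since Gm49394 shares exons with it on the same strand, and it failed the filter on low counts. Fitted without that filter, its log2 fold change was −1.71 (SE 0.695, adjusted p = 0.369 by edgeR), and that of Igf1 was −0.52 (SE 1.1, adjusted p = 0.861 by edgeR).

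The receptors were far more abundant than the ligands, and neither followed the labels. Igf1r is on chromosome 7 from 67952827 to 68233668 and measured 58.8, 136 and 110 CPM across Ctl MSC 1, 2 and 3, against 110, 60.9 and 110 CPM across MSC-TPr 1, 2 and 3. The 2 low libraries were Ctl MSC 1 and MSC-TPr 2, 1 of each label. Its log2 fold change over all 6 was −0.12 (SE 0.366, adjusted p = 0.909 by edgeR), and −0.52 without the libraries numbered 1 (SE 0.278, adjusted p = 0.172 by edgeR). Igf2r, on chromosome 17 from 12682406 to 12769664, measured 115, 374 and 346 CPM in the Ctl MSC libraries, while MSC-TPr gave 344, 126 and 232 CPM. Ctl MSC 1, MSC-TPr 2 and MSC-TPr 3, the libraries with a high cell division level, were its 3 lowest, and the groups overlapped. Over all 6 libraries its log2 fold change was −0.25 (SE 0.524, adjusted p = 0.861 by edgeR). Without the libraries numbered 1 it was −1.0 (SE 0.277, adjusted p = 0.029 by edgeR), and with the cell division level as a covariate 0.29 (SE 0.267, adjusted p = 0.498 by edgeR). The part of cell division in these differences was not tested.

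Igf2r exceeded Igf1r in every library when levels are set per length. In CPM per kb of exon, Igf2r was 3.53 to 5.68 times as high as Igf1r, with the 3 lowest ratios (3.53, 3.74 and 3.82) in Ctl MSC 1, MSC-TPr 2 and MSC-TPr 3. The size of the ratio rests on the length used. The mean of Igf1r was 6.04 CPM per kb in Ctl MSC and 5.57 in MSC-TPr. With the longest transcript as length it was 8.89 and 8.20, against 31.3 and 26.4 for Igf2r. Insr, the insulin receptor, which can pair with IGF1R chains, had the same split of libraries as Igf2r. It measured 40.4, 127 and 112 CPM across Ctl MSC 1, 2 and 3, against 128, 45.9 and 72.7 CPM across MSC-TPr 1, 2 and 3, a log2 fold change of −0.18 over all 6 (SE 0.518, adjusted p = 0.899 by edgeR) and −1.0 without the libraries numbered 1 (SE 0.224, adjusted p = 0.0144 by edgeR).

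**Figure D2:**
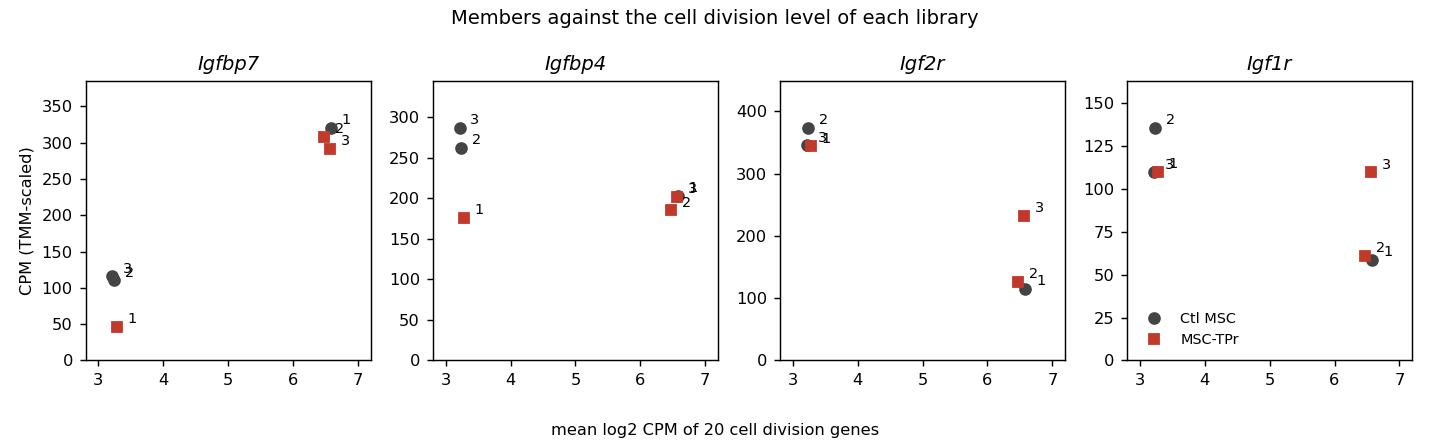
CPM (TMM-scaled) of Igfbp7, Igfbp4, Igf2r and Igf1r in each library against the level of cell division genes (mean log2 CPM over 20), with Ctl MSC as circles, MSC-TPr as squares and points numbered by replicate. The libraries lie at 3.22 to 3.28 or at 6.47 to 6.58 on the x axis, with both labels at each, and Igfbp7 is at 46.1 to 116 CPM in the former and at 291 to 321 CPM in the latter.

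Igfbp5 had the largest log2 fold change in size of the 6 members tested. IGFBP5 binds bone matrix and is secreted by osteoblast-lineage and muscle cells. The gene lies on the minus strand of chromosome 1 from 72857932 to 72874884, as an end-to-end neighbour of Igfbp2, whose gene ends 5457 bases away on the plus strand. Igfbp5 measured 3.69, 1.28 and 1.49 CPM in Ctl MSC 1, 2 and 3 (61, 24 and 27 reads) and 14.6, 7.34 and 26.9 CPM in MSC-TPr 1, 2 and 3 (264, 124 and 580 reads). Every MSC-TPr library lay above every Ctl MSC library, as it did for 10.6% of all genes tested, and Ctl MSC 1 was the highest control. The means were 2.15 ± 1.33 CPM and 16.3 ± 9.89 CPM (SD, n = 3 each).

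The log2 fold change of Igfbp5 was 2.92 (SE 0.629) over all 6 libraries, with an edgeR adjusted p of 0.126. It thus missed the threshold in that fit. The value passed it without the libraries numbered 1 (3.64, SE 0.675, edgeR adjusted p = 0.0076), with the cell division level as a covariate (2.79, SE 0.508, edgeR adjusted p = 0.014) and in DESeq2 over all 6 (2.94, DESeq2 adjusted p = 0.000122). These fits called 40% of 12122, 12.2% of 11974 and 5.28% of 12934 genes, the last being those that DESeq2 gave an adjusted p. Leaving out each library in turn gave 2.36 to 3.55 with edgeR, higher in MSC-TPr each time, and adjusted p from 0.0737 to 0.441.

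The genes closest to Igfbp5 in their course over the 6 libraries, by the root mean square distance of centred log2 CPM among 10822 genes, were Kif5c, a kinesin heavy chain, at 0.656, Rhox5, a reproductive homeobox gene, at 0.721, and Smpd3, a neutral sphingomyelinase, at 0.745. None lay within 0.5. Kif5c measured 5.63 to 7.25 CPM across Ctl MSC, against 20.8 to 32.8 CPM in MSC-TPr.

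Igfbp2, the neighbour of Igfbp5, stayed under the floor of 3 reads in every library and was thus not detectable at this depth. The gene, on chromosome 1 from 72824503 to 72852474, had 2, 0 and 1 reads in Ctl MSC (0.121, 0 and 0.055 CPM) and 0 reads in each MSC-TPr library, which allows up to 0.139 to 0.178 CPM there, and no fold is given. IGFBP2 and IGFBP3 are the binding proteins most abundant in serum. Igfbp3, on chromosome 11 from 7206086 to 7213923, had 18, 1 and 2 reads across Ctl MSC (1.09, 0.053 and 0.11 CPM), against 5, 4 and 27 across MSC-TPr (0.277, 0.237 and 1.25 CPM). The groups overlapped, with Ctl MSC 1 and MSC-TPr 3 high, and the log2 fold change without the filter was 0.56 (SE 1.1, adjusted p = 0.849 by edgeR).

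Igfbp4 was lower in every MSC-TPr library, by a small margin. IGFBP4 restrains IGF action until the protease PAPP-A cleaves it. The gene, on chromosome 11 from 99041244 to 99054392, measured 203, 262 and 287 CPM in the Ctl MSC libraries, while MSC-TPr gave 176, 185 and 202 CPM. The gap between the groups was narrow, from 202 CPM in MSC-TPr 3 to 203 CPM in Ctl MSC 1, and 12.1% of all genes tested were lower without overlap. The log2 fold change was −0.42 (SE 0.176, adjusted p = 0.333 by edgeR) over all 6 libraries and −0.50 (SE 0.121, adjusted p = 0.0182 by edgeR) without the libraries numbered 1, where it was called. With the cell division level as a covariate it was −0.35 (SE 0.16, adjusted p = 0.173 by edgeR). Among the genes closest to it by the same distance were Cdk16, a cyclin-dependent kinase, at 0.047 and Slc33a1, an acetyl-CoA transporter, at 0.057, but Igfbp4 itself varied little, so that genes of other small courses lie near it too.

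Igfbp7 divided the libraries of each label. IGFBP7 binds insulin-like growth factors weakly and is a vascular and stromal matrix protein. On chromosome 5 from 77349240 to 77408041, it measured 321, 111 and 116 CPM across Ctl MSC 1, 2 and 3, against 46.1, 308 and 291 CPM across MSC-TPr 1, 2 and 3. The 3 high libraries were those with a high cell division level, and the groups overlapped. The same 3 libraries had the largest sums of the 10 MSC markers. These were 8160 CPM for Ctl MSC 1, 7068 CPM for MSC-TPr 2 and 13990 CPM for MSC-TPr 3. The sum in the other libraries was 2152 to 3156 CPM. Most of each sum came from Col1a1 and Col1a2, which had this split, as did Cd44, Ly6a and Vcam1. Nt5e, Thy1, Eng, Pdgfra and Pdgfrb did not, and the part of the markers in the result was not tested. The log2 fold change of Igfbp7 was 0.24 (SE 0.742, adjusted p = 0.907 by edgeR) over all 6 libraries, 1.41 (SE 0.115, adjusted p = 0.000496 by edgeR) without the libraries numbered 1, and −0.68 (SE 0.271, adjusted p = 0.131 by edgeR) with the cell division level as a covariate. MSC-TPr 1, the lowest library, measured 46.1 CPM where Ctl MSC 2 and 3, at a like cell division level, measured 111 and 116 CPM. Vwf and Cd68 were highest in that library, at 21.4 and 14.2 CPM, and their part was not tested either. Exons of Igfbp7 overlap those of Polr2b on the opposite strand, and the sources do not say whether the counting used the strand.

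Igfbp6 showed the same split of libraries as Igfbp7 at a much lower level, and was highest in Ctl MSC 1. Ctl MSC 1 and MSC-TPr 2 and 3, with a high cell division level, lay above the others, by a small margin for MSC-TPr 3. IGFBP6 prefers IGF2 over IGF1. On chromosome 15 from 102144362 to 102149511, it measured 3.63, 0.908 and 0.552 CPM in Ctl MSC (60, 17 and 10 reads) and 0.72, 1.78 and 1.25 CPM in MSC-TPr (13, 30 and 27 reads). The groups overlapped, and the direction between labels turned with the libraries used: the log2 fold change was −0.43 over all 6 (SE 0.754, adjusted p = 0.832 by edgeR) and 1.03 without the libraries numbered 1 (SE 0.386, adjusted p = 0.0725 by edgeR). The genes closest to it were Zfp101 (0.216), Calr3 (0.226) and Efemp1 (0.245), and 384 of 10823 genes lay within 0.5. Efemp1, a fibulin of the extracellular matrix, measured 208 CPM in Ctl MSC 1 and 37.8 to 83.2 CPM in the other libraries.

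**Figure D3:**
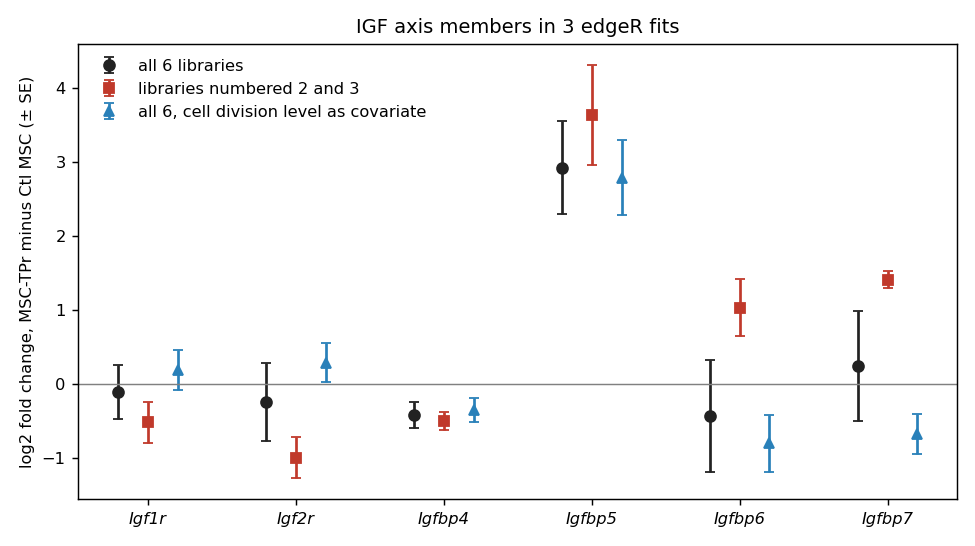
Log2 fold change (MSC-TPr minus Ctl MSC, points) with its SE (bars) of the 6 members tested, in edgeR fits over all 6 libraries (circles), the libraries numbered 2 and 3 only (squares), and all 6 with the cell division level as a covariate (triangles). Igfbp5 stays between 2.79 and 3.64 and Igfbp4 between −0.50 and −0.35, while Igfbp6, Igfbp7 and both receptors lie on different sides of 0.

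Set per length, the order of the members was much the same in all libraries. Igfbp7 and Igfbp4 held the top 2 places in each, at 38.2 to 265 and 39.8 to 65.0 CPM per kb, ranges that overlap. Igfbp7 was above Igfbp4 in every library but MSC-TPr 1, where they measured 38.2 and 39.8 CPM per kb. Igf2r came next in all 6 libraries at 12.4 to 40.2 CPM per kb, then Igf1r at 3.50 to 8.08 CPM per kb, and these ranges do not overlap. Igfbp5 (0.213 to 4.48 CPM per kb) and Igfbp6 (0.496 to 3.26 CPM per kb) followed. Igfbp6 was the higher of the pair in all 3 Ctl MSC libraries and in MSC-TPr 2, and Igfbp5 in MSC-TPr 1 and 3. Igfbp3, Igf2, Igf1 and Igfbp2 were each at or under 0.400 CPM per kb.

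The transcripts of the 6 binding proteins summed to 316 CPM per kb in Ctl MSC 1, 152 and 162 in Ctl MSC 2 and 3, 81.2 in MSC-TPr 1, and 300 and 293 in MSC-TPr 2 and 3. Igfbp4 and Igfbp7 made up 96.1% to 99.5% of this sum. Igfbp7 alone made up 84.1%, 60.2% and 59.3% across Ctl MSC 1, 2 and 3, against 47.0%, 85.1% and 82.4% across MSC-TPr 1, 2 and 3. The share of Igfbp5 was 0.140% to 0.194% in Ctl MSC and 0.408% to 3.0% in MSC-TPr. This share rests on the same Igfbp5 reads, so it adds no further support. Its top value, in MSC-TPr 1, goes with the lowest sum.

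**Figure D4:**
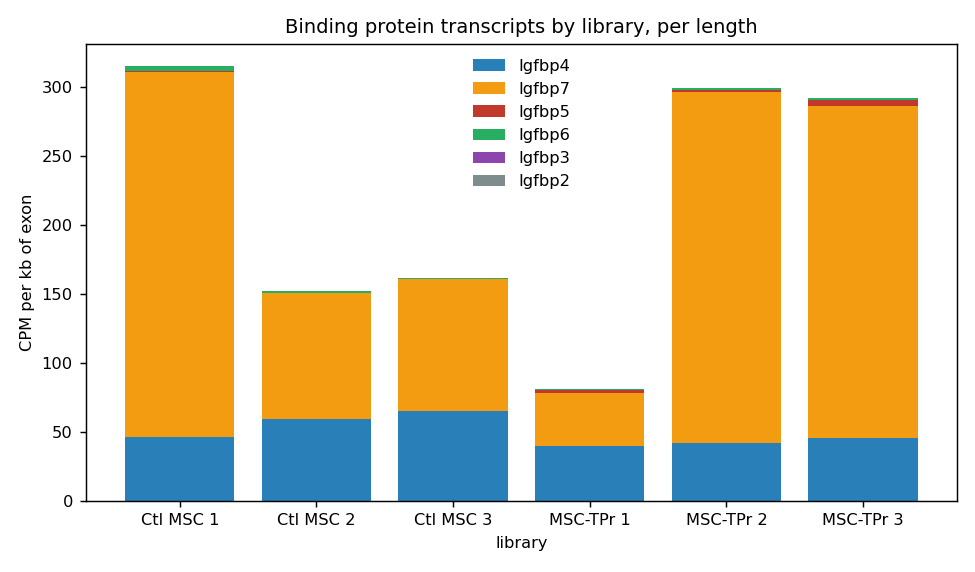
Stacked bars of the 6 binding proteins in CPM per kb of exon for each library. Igfbp7 (orange) sets the height, tall in Ctl MSC 1 and MSC-TPr 2 and 3 (293 to 316 in sum), while Igfbp4 (blue) stays between 39.8 and 65.0, and Igfbp5 (red) reaches 1.22 to 4.48 in MSC-TPr and at most 0.614 in Ctl MSC.

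The wider pathway was described with 41 genes chosen for their function, of which 34 passed the filter. Over all 6 libraries 14 of the 34 had a positive and 20 a negative log2 fold change, with a median of −0.18, and 1 was called, Grb10, where 0.401% of all genes tested were called lower. An unadjusted p under 0.05 was reached by 5 of the 34, against 15% of all genes tested. The groups did not overlap for 2 genes higher and 4 lower in MSC-TPr, where 10.6% and 12.1% of all genes tested did not. DESeq2 called 2 as higher and 2 as lower (1.89% and 3.39% of the genes that it gave an adjusted p). Without the libraries numbered 1 edgeR called 4 as higher and 15 as lower (20.6% and 19.4% of all genes tested). Grb10 encodes an imprinted adaptor that binds IGF1R and the insulin receptor and restrains their signal. On chromosome 11 from 11930508 to 12038683, it measured 379, 628 and 591 CPM in the Ctl MSC libraries, while MSC-TPr gave 130, 95.8 and 87.2 CPM. All MSC-TPr libraries lay below all Ctl MSC libraries, with means of 533 ± 134 CPM and 104 ± 22.4 CPM (SD, n = 3 each). The log2 fold change was −2.35 (SE 0.269, adjusted p = 0.0313 by edgeR) over all 6 libraries and −2.73 (SE 0.129, adjusted p = 0.000112 by edgeR) without the libraries numbered 1. The call was lost when Ctl MSC 2 (edgeR adjusted p = 0.129), Ctl MSC 3 (0.129), MSC-TPr 2 (0.218) or MSC-TPr 3 (0.197) was left out, with log2 fold changes from −2.29 to −2.22.

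Among the other 24 adaptors, kinases and targets of the receptors, all of which were tested, Pik3r1, the regulatory subunit of phosphoinositide 3-kinase, had the largest log2 fold change in size. It measured 57.9, 61.0 and 61.1 CPM across Ctl MSC 1, 2 and 3, against 35.9, 22.5 and 40.3 CPM across MSC-TPr 1, 2 and 3, a log2 fold change of −0.87 (SE 0.234, adjusted p = 0.185 by edgeR). Akt1, a kinase downstream of it, is named because DESeq2 called it, and was thus chosen after its values were seen. It measured 209, 165 and 176 CPM in the Ctl MSC libraries, while MSC-TPr gave 244, 308 and 290 CPM, a log2 fold change of 0.61 (SE 0.169, adjusted p = 0.191 by edgeR). Neither gene's groups overlapped, as for 22.6% of all genes tested, and DESeq2 gave adjusted p of 0.0491 for Pik3r1 and 0.0436 for Akt1. Both were also called without the libraries numbered 1, Pik3r1 at −0.95 (SE 0.261, adjusted p = 0.0283 by edgeR) and Akt1 at 0.81 (SE 0.115, adjusted p = 0.00306 by edgeR). That fit called 40% of all genes tested and uses part of the same libraries. Label and cell division level cannot be told apart in it.

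The RNA-binding proteins that bind Igf2 mRNA were tested as well. Igf2bp2, the most abundant of them, is named after its values were seen. It measured 107, 158 and 162 CPM in the Ctl MSC libraries, while MSC-TPr gave 147, 108 and 96.6 CPM. Its log2 fold change was −0.28 over all 6 libraries (SE 0.239, adjusted p = 0.627 by edgeR). Without the libraries numbered 1 it was −0.65 (SE 0.117, adjusted p = 0.00692 by edgeR), where it was called. Igf2bp1, on chromosome 11 from 95957163 to 96005940, measured 2.78, 4.81 and 4.08 CPM across Ctl MSC 1, 2 and 3, against 14.9, 16.7 and 11.2 CPM across MSC-TPr 1, 2 and 3. Its groups did not overlap, as for 22.6% of all genes tested. The log2 fold change of Igf2bp1 was 1.87 (SE 0.293, adjusted p = 0.0727 by edgeR) over all 6 libraries, 1.65 without the libraries numbered 1 (SE 0.248, adjusted p = 0.00377 by edgeR), and 1.88 in DESeq2 (DESeq2 adjusted p = 2.16e-06). It thus missed the threshold over all 6 libraries in edgeR. Igf2bp3 measured 2.72, 2.03 and 2.32 CPM in the Ctl MSC libraries, while MSC-TPr gave 1.61, 1.83 and 0.603 CPM, a log2 fold change of −0.81 (SE 0.456, adjusted p = 0.46 by edgeR) over all 6 libraries and −0.88 without those numbered 1 (SE 0.49, adjusted p = 0.186 by edgeR). Exons of Igf2bp3 overlap those of Malsu1, and exons of Igf2bp1 those of Gm29202, on the opposite strand.

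Of 6 genes that cleave the binding proteins or inhibit the proteases, 5 were tested and 0 called over all 6 libraries by edgeR or DESeq2, with an unadjusted edgeR p under 0.05 for 1, Htra1. Adam12, a metalloprotease that can cleave IGFBP3 and IGFBP5, measured 15.2, 1.60 and 1.54 CPM across Ctl MSC 1, 2 and 3, against 0.886, 58.8 and 66.0 CPM across MSC-TPr 1, 2 and 3. Its high libraries were those with a high cell division level, and its log2 fold change of 2.78 had an SE of 1.5 (edgeR adjusted p = 0.441). The value was 5.31 without the libraries numbered 1 (SE 0.165, adjusted p = 8.81e-05 by edgeR), where it was called. It was 4.73 without Ctl MSC 1 alone (SE 1.67, adjusted p = 0.181 by edgeR), and 1.24 with the cell division level as a covariate (SE 0.55, adjusted p = 0.167 by edgeR). Htra1, a serine protease, measured 205, 340 and 361 CPM in the Ctl MSC libraries, while MSC-TPr gave 207, 211 and 179 CPM, with a log2 fold change of −0.60 (SE 0.241, adjusted p = 0.314 by edgeR) and overlap between Ctl MSC 1 and MSC-TPr. Without the libraries numbered 1 Htra1 gave −0.84 and was called (SE 0.132, adjusted p = 0.0042 by edgeR). Pappa, the IGFBP4 protease, is named for that role after its values were seen, and measured 24.6 to 60.9 CPM across Ctl MSC, against 24.9 to 53.8 CPM in MSC-TPr. Of the 7 pathway genes that were not tested, Igfbp1, Igfbpl1, Ins1 and Ins2 had 0 reads in all libraries, Igfals at most 1, Stc1 at most 3 and H19 at most 9.

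**Figure D5:**
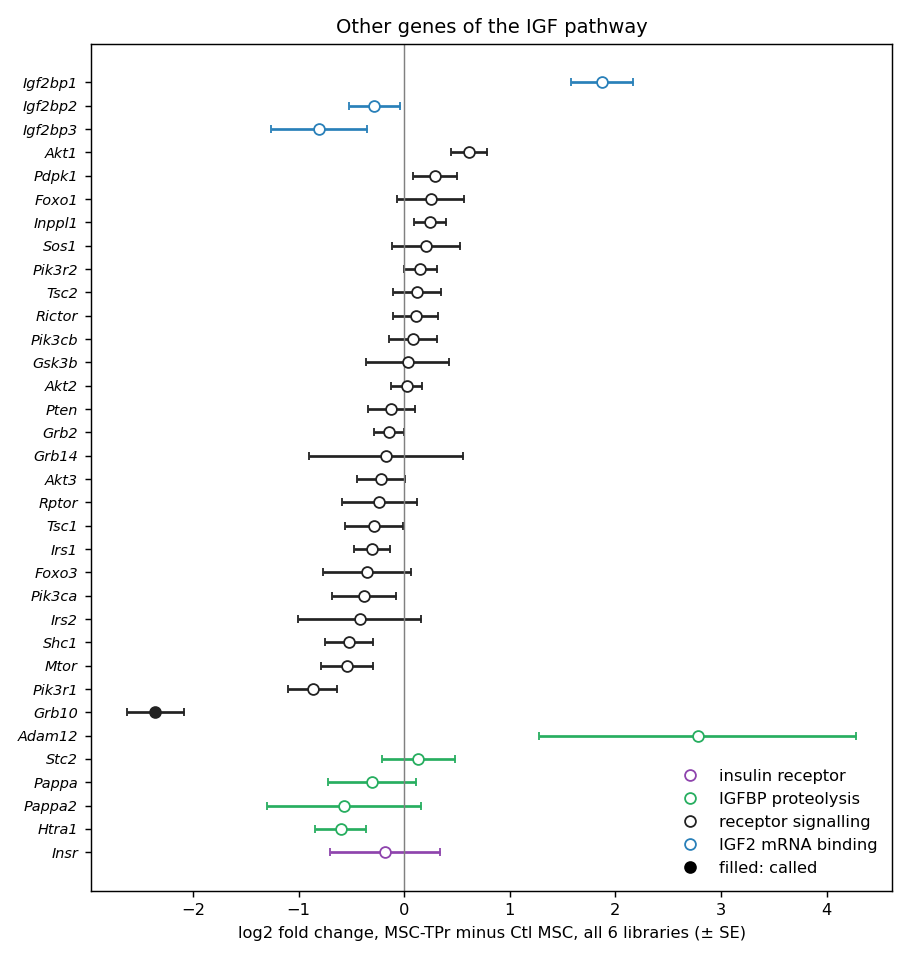
Log2 fold change (MSC-TPr minus Ctl MSC, all 6 libraries) with its SE for the 34 other pathway genes tested, coloured by function, with a filled point for a gene called. Grb10 at −2.35 is the called gene, Igf2bp1 lies at 1.87 (SE 0.293), and Adam12 lies at 2.78 with a wide bar (SE 1.5).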

How the data were processed

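Stranded libraries were made from polyadenylated RNA of 6 samples. Htseq-count was used by the authors on reads aligned to mm10, and the deposited values are raw counts per gene symbol. The submitters' processing notes name CASAVA 1.8.2, Trimmomatic 0.35 and TopHat2 2.1.0, and whether the counting used the strand is not given in the sources used here. The 5 rows that name no gene held 13.8% to 20.8% of the reads listed and were left out.

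The counts were fitted by edgeR 4.0.16 under R 4.3.3, after filterByExpr and TMM scaling, by a quasi-likelihood model of the group alone, with Benjamini-Hochberg adjustment across the genes tested. An SE was taken as the absolute log2 fold change over the square root of F. DESeq2 1.42.0 was an alternative. Levels per length divide CPM by the merged exon length of GENCODE M21 (mm10). Reads per library, 16158756 to 22158887, limit the precision of low genes, and none of the 15 pairs of libraries agreed within sampling noise, the closest being Ctl MSC 2 and 3 with a chi-square of 4.97 per gene.

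The members, lists and alternatives were chosen with earlier results of these data known. Named were all members, genes of the pathway lists that were called or had the 2 largest log2 fold changes in size of their list, and the 3 genes (mean log2 CPM of at least 1) nearest to each of the 3 members with the largest log2 fold changes. Some genes that these rules or lists hold are not reported here. Other alternatives were RLE and upper quartile scaling, other filters on low counts, no fold threshold, the replicate number as a block, a covariate for cell division (the mean log2 CPM of 20 genes), leaving out each library, and leaving out both libraries numbered 1.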

Additional observations from a re-analysis of the deposited data

How the results depend on the processing

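Over all 6 libraries 51 genes were called, 0 of them members and 1 (Grb10) of the wider pathway. At least 10 counts in every library gave 31 calls, the cell division covariate 1457, DESeq2 683 and the libraries numbered 2 and 3 alone 4854, of which members were 0, 1 (Igfbp5), 1 (Igfbp5) and 4 (Igfbp4, Igfbp5, Igfbp7 and Igf2r) and genes of the wider pathway 1, 4, 4 and 19. Leaving out each library in turn gave 0 to 108 calls, 0 members and 0 to 1 pathway genes. Calls fell to 0 without Ctl MSC 2, Ctl MSC 3 or MSC-TPr 3 (927, 925 and 1547 genes with an unadjusted edgeR p under 0.05) and to 1 without MSC-TPr 2, and rose to 108 without Ctl MSC 1. The cause was not tested.

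Deviations from the group means gave r = −0.765, −0.594 and −0.604 across genes for same-numbered libraries and −0.577 to 0.723 for others. The libraries numbered 1 stand apart in opposite directions and set these signs, so the check cannot show whether numbers mark shared cultures, and no label says so. Blocking on the replicate number left 0 calls, 0 of them members and 0 of the wider pathway, with 776 genes at an unadjusted edgeR p under 0.05. The log2 fold change of Igfbp5 was then 2.87 (edgeR adjusted p = 0.507), and Grb10 lost its call (edgeR adjusted p = 0.41).

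Directions turned in 13 of 84 recomputed member values and 3 of 112 for the other genes recomputed. With the cell division covariate Igf1r gave 0.19, Igf2r 0.29, Igfbp7 −0.68 and Insr 0.32. Without Ctl MSC 1 Igfbp6 gave 0.77, and without both libraries numbered 1 it gave 1.03. Leaving out single libraries turned Igf1r (−0.39 to 0.15), Igf2r (−0.63 to 0.055), Igfbp7 (−0.11 to 0.93), Igfbp6 (−0.85 to 0.77) and Insr (−0.65 to 0.11). Igfbp4 (−0.55 to −0.31), Igfbp5 (2.36 to 3.64) and Grb10 (−2.73 to −2.14) kept their directions in all alternatives. Of 38 levels per length recomputed, 3 moved by more than their SD, all with the longest transcript as length, and the order of the 10 means was the same. Igf1, Igf2, Igfbp2 and Igfbp3 are limited by depth.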
